A study of Mus musculus with 104 samples.

Results

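The cerebellum of aged BALB mice was compared with that of aged C57BL/6 mice, both 21 to 23 months old, to ask how the transcript levels of this brain region differ between 2 inbred strains at the same age. Every array labelled aged cerebellum of these strains was used, which gave 4 BALB and 6 C57BL/6 arrays, or 10 of the 104 samples of the series. All mice were male and came from the NIA aged rodent colony. The labels name no transgene and no drug, and the substrains are not given. Total RNA of whole tissue was amplified, labelled with Cy3 and hybridized in 1 colour to Agilent whole mouse genome arrays. Levels are given as normalized log2 signal of a probe, so that a step of 1 is a doubling, and each difference is BALB minus C57BL/6. Each array is a separate sample in the labels. The methods describe the arrayed tissue as coming from randomly picked mice that counted as biological replicates, with 1 technical replicate kept for each.

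The cerebellum adjusts movement and posture. Its cortex holds the Purkinje cells, whose inhibitory axons are its only output, and the granule cells, which excite them, with Bergmann glia around the Purkinje cell bodies. Microglia are the resident immune cells of brain tissue, and interferons are secreted proteins that switch on a common set of antiviral genes in many cell types.

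Markers of the labelled tissue were strong on all 10 arrays. Pcp2, a Purkinje cell gene, read between 16.34 and 17.16, and Gabra6, a granule cell receptor subunit, read between 13.65 and 15.55. The arrays differed in markers of neighbouring tissue. C57BL/6 array 1 read 12.36 for Avp and 11.60 for Oxt, which encode hypothalamic peptides, and 5.29 for Ttr, a choroid plexus gene that read at least 10.86 on the other arrays. Markers of forebrain cortex averaged 0.76 above their 10-array mean on BALB array 3, against at most 0.34 on the others. The hindbrain gene Hoxb5 read 5.22 and 3.69 on BALB arrays 2 and 3 and between 8.96 and 11.89 on the others. BALB array 1 was dim, with a 75th percentile of raw signal of 641 against 792 to 2448 on the other arrays, and its median correlation with the other BALB arrays was 0.936, where those 3 correlated at 0.969 or more among themselves. All BALB arrays were scanned on one day and all C57BL/6 arrays on another, and no slide held both strains, so strain, slide and scan cannot be told apart.

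**Figure D1:**
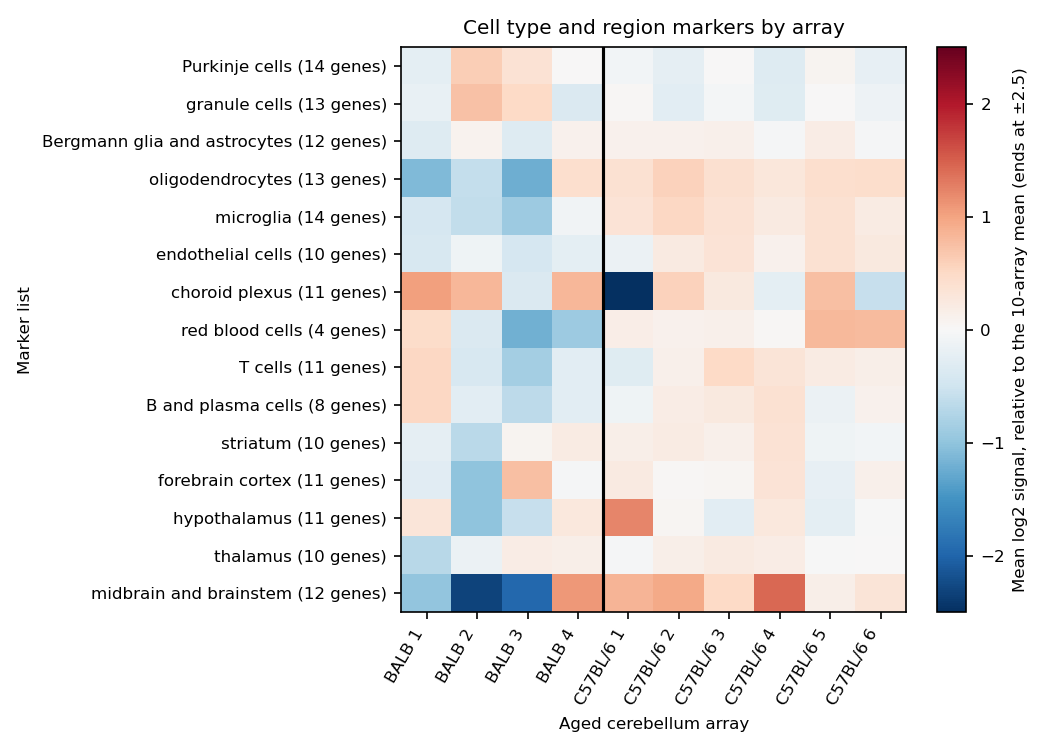
Mean log2 signal of each cell type or region marker list (rows, with the number of genes tested) on the 4 BALB and 6 C57BL/6 aged cerebellum arrays (columns), relative to the mean over the 10 arrays, with colours ending at 2.5 on either side. Midbrain and brainstem markers were lowest on BALB arrays 2 (-2.32) and 3 (-1.97), and choroid plexus markers on C57BL/6 array 1 (-3.09).

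Of 23644 genes tested, each through its brightest probe, 984 (4.16%) were called at B above 0, where B is the log odds of limma that a gene differs. Of these, 510 (2.16%) were higher and 474 (2%) were lower in BALB. The split moved with the scaling, to 358 higher and 610 lower when each array was scaled to its 75th percentile. The median size of the difference among called genes was 1.57, and 36 genes differed by at least 4 on the log2 scale. The arrays of the 2 strains did not overlap for 980 of the called genes and for 15.2% of all genes tested. Without BALB array 1 the count of called genes was 1542, and without BALB arrays 2 and 3, an alternative chosen after seeing the data, it was 655. With the slide as a random block it was 584.

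**Figure D2:**
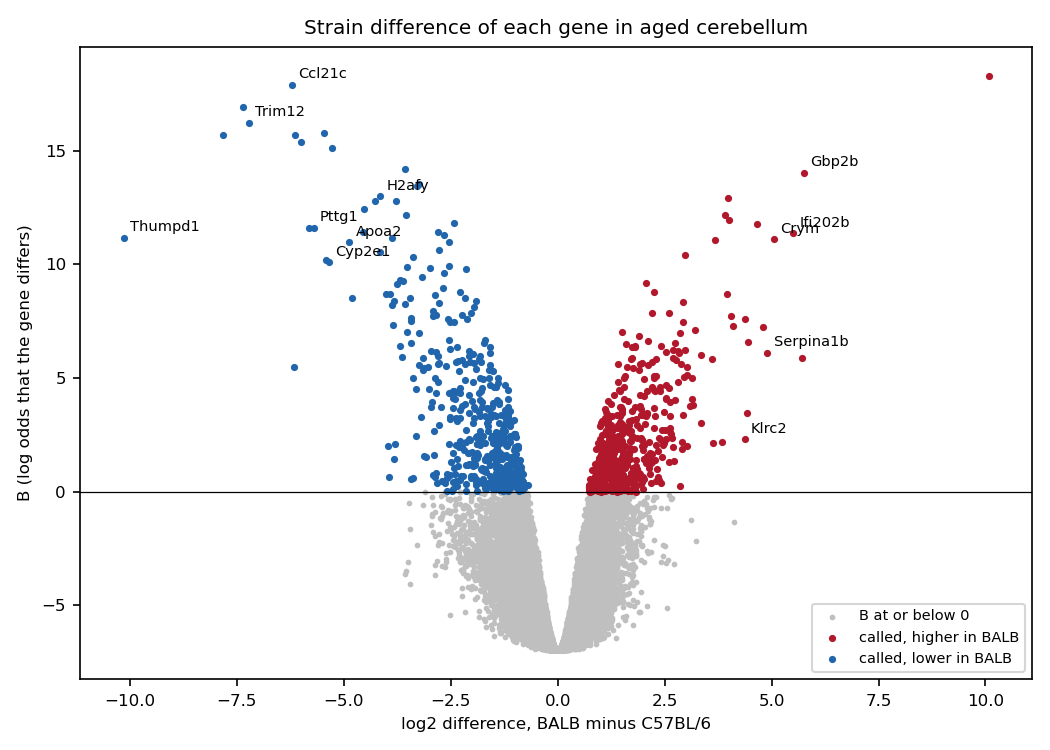
B of each tested gene against its log2 difference, BALB minus C57BL/6, in aged cerebellum. Called genes lie above the line at 0, with 510 to the right (higher in BALB) and 474 to the left. Labels mark a part of the genes with the largest differences.

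Among named genes, Crym, which encodes a thyroid hormone binding protein, had one of the largest signals higher in BALB. Its BALB arrays read 12.46, 12.21, 12.48 and 11.44, and the C57BL/6 arrays read from 6.42 through a median of 7.13 to 7.89. The strains did not overlap, and the difference of 5.05 ± 0.31 (SE) was 33.0-fold (limma adjusted p = 4.09e-06). Gbp2b and Ifi202b, both induced by interferon, were higher in BALB as well. Gbp2b read 7.59, 7.70, 7.30 and 7.76 in BALB and was not well above background on any C57BL/6 array, so that it was at least 22.2-fold higher (limma adjusted p = 3.65e-07). Such a bound sets the bright group against the lowest signal well above background on each dim array. Ifi202b read between 7.60 and 8.43 in BALB and between 1.57 and 3.22 in C57BL/6, where 2 of 6 arrays were well above background.

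Serpina1b and Serpina1d, copies of the gene for the protease inhibitor alpha-1 antitrypsin, differed by 4.90 ± 0.51 and 4.00 ± 0.23, the former with 2 of 6 C57BL/6 arrays well above background. These copies are close in sequence, and their signals are uncertain as measures of each copy. Dusp16, a phosphatase of MAP kinases, differed by 3.68 ± 0.23, but its other 2 probes gave 0.35 and -0.16. The natural killer cell receptor gene Klrc2 read 10.87, 8.93, 7.78 and 9.74 in BALB and from 3.35 to 6.82 in C57BL/6. Hal, the first enzyme of histidine breakdown, and Zfp459, a zinc finger gene, were higher by 4.11 ± 0.38 and 4.45 ± 0.44. Hal was well above background on 1 of 6 C57BL/6 arrays and Zfp459 on 4, so these sizes rest in part on background signal, as does that of Serpina1b. Cyp2b10, a cytochrome P450 of drug metabolism, Slc22a29, of an organic anion transporter family, and Defcr-rs2, a defensin-related gene, were dim in C57BL/6 and at least 7.10-fold, 7.32-fold and 6.74-fold higher in BALB.

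Thumpd1, which assists tRNA acetylation, was lower in BALB by 1 of its 2 probes. Its brightest probe read 1.44, 5.05, 1.47 and 1.51 in BALB, where 1 array of 4 was well above background, and from 12.34 through 12.48 to 12.89 in C57BL/6. The fitted difference of -10.15 was thus set against background on 3 of the 4 BALB arrays. A second Thumpd1 probe differed by 0.19 ± 0.39 and was not called, so the probes disagree.

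Pttg1, which encodes securin, an inhibitor of chromosome separation, read 10.22, 8.51, 8.36 and 9.13 in BALB and from 14.47 through 14.65 to 15.12 in C57BL/6. It had 1 tested probe, and was 52.1-fold lower in BALB (difference -5.70 ± 0.34, limma adjusted p = 2.93e-06). Trim12, of a family with antiviral members, was not well above background on any BALB array and was at least 45.7-fold lower there. Ccl21c, a chemokine that draws lymphocytes, read 5.28 to 5.79 in BALB and 11.52 to 11.81 in C57BL/6, and its near-identical copies make the source of this signal uncertain. Apoa2, a protein of high-density lipoprotein, Cyp2e1, a cytochrome P450 that oxidises ethanol, and Bub1b, of the spindle checkpoint, were at least 9.54-fold, 5.42-fold and 6.75-fold lower. H2afy, a variant histone, Otud3, a deubiquitinase, and Zfp874a, a zinc finger gene, differed by -4.16, -4.53 and -5.41. Prim2, a primase subunit, and Cd38, an enzyme that breaks down NAD, differed by -4.28 and -4.14, while the second probe of each was not called, at 0.28 for Cd38 and above 0 for Prim2.

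**Figure D3:**
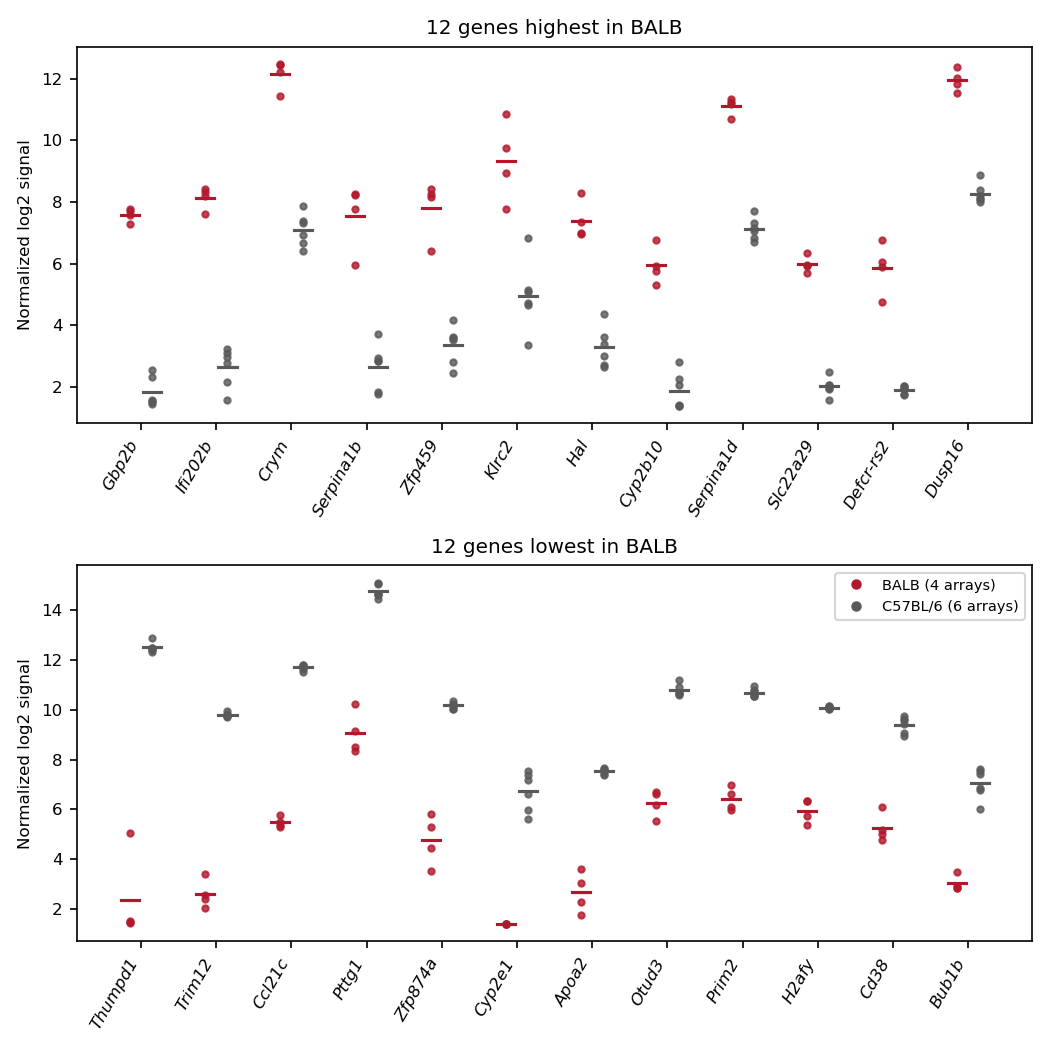
Normalized log2 signal of the 12 named genes with the largest differences in each direction, as points for each array and a short line at the mean of the 4 BALB and 6 C57BL/6 arrays. The strains did not overlap for any of these genes, which the naming rule required.

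The probes of 1 gene did not always move together. Of the 294 called genes with 2 or more tested probes, all probes lay on the same side of 0 for 188 (63.9%), against 53.8% of all 7432 such genes, and every probe was called for 43. Of the 984 called genes, 90 were not well above background on any BALB array and 10 on any C57BL/6 array. These 2 counts were not made over all genes tested. A sequence difference between the strains under a probe can change its signal, and this was not tested. Genes with 1 tested probe, such as Trim12 and Pttg1, have no second probe to compare.

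Interferon-induced genes were mostly lower in BALB. Of 42 tested, 11 were called lower and 2, Gbp2b and Ifi202b, higher, and the median difference was -0.79 against 0.01 over all genes tested. The called share was 31%, beside 4.16% of all genes. Isg15, a ubiquitin-like protein attached to other proteins in antiviral defence, read 9.18, 8.86, 8.44 and 8.89 in BALB and from 9.81 through 10.35 to 10.49 in C57BL/6. Its arrays did not overlap between strains, and the difference was -1.45 ± 0.20 (limma adjusted p = 0.00133). Ifi27l2a, one of the strongest interferon targets, differed by -1.97 ± 0.34, with BALB array 1 at 12.42 and the other BALB arrays between 10.49 and 10.69. Its call was lost in 4 of the 10 fits that left out 1 array and with 75th percentile scaling. Irgm2 and Igtp, GTPases that act against intracellular microbes, differed by -1.81 ± 0.19 and -1.43 ± 0.17. The transcription factor Irf7, the tether of budding viruses Bst2, and Ifit3 and Oasl2, which act against viral RNA, differed by -1.37, -1.55, -1.64 and -1.60. Gbp2, Rtp4 and Usp18 differed by -1.04, -1.41 and -1.21. Without BALB arrays 2 and 3, 7 members were called lower and the median was -0.62.

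The promoters of Isg15, Ifit3 and Bst2 are shown because each held more than 1 match to the interferon response motif, which is GAAA, any 2 bases and GAAA again, in the 250 bases before its start site. Capitals mark the matches on either strand, which may overlap (RefSeq, GRCm38.p6).
Isg15, chr4:156200819-156201068, - strand: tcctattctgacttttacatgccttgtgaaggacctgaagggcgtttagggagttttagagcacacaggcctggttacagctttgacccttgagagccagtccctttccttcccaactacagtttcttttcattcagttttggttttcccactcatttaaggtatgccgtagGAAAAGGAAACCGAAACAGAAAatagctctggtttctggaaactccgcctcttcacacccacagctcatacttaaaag
Ifit3, chr19:34583279-34583528, + strand: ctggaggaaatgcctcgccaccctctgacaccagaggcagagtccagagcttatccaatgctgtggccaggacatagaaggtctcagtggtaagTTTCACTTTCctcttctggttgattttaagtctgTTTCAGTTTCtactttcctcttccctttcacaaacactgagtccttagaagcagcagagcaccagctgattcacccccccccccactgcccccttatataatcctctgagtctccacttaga
Bst2, chr8:71537473-71537722, - strand: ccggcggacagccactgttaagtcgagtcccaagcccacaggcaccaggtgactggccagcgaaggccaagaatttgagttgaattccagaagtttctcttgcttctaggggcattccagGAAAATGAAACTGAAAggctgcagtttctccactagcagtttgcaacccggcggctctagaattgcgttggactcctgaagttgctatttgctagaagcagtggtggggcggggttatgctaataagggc
Of the 8 lower interferon-induced genes with a promoter in the table, 6 held a match, as did 1 of the 2 higher ones. In all, 17 of 26 interferon-induced genes tested and 3.24% of the 12694 tested genes with a promoter held one.

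Of 35 immune genes that the study names, 6 (17.1%, beside 4.16% of all genes) were called lower in BALB and none higher. The median difference was -0.55, with 29 differences below 0 and 6 above, the largest of these at 1.34 and not called. The list was chosen by the study on samples that include these C57BL/6 arrays, so it is not independent evidence of its direction. C1qb, a chain of the first complement component, read 11.12, 10.38, 11.29 and 10.92 in BALB and from 12.62 through 12.69 to 12.90 in C57BL/6. It was 3.49-fold lower in BALB (difference -1.80 ± 0.19, limma adjusted p = 0.000267). Ly86, a partner of a Toll-like receptor relative, differed by -1.84 ± 0.25, and Lgals3bp, a secreted lectin-binding protein, by -1.26 ± 0.20. Tyrobp and Fcer1g, signalling adaptors of myeloid receptors, differed by -1.20 and -1.04, and C1qa by -1.01. In the 10 fits that left out 1 array, the call of Fcer1g was lost in 9, that of C1qa in 8 and that of Tyrobp in 4. These 3 calls were also lost with 75th percentile scaling and with the slide as a random block. The list then had 4 and 3 of its 35 genes called lower, in the same order. Without BALB arrays 2 and 3 it had 3, and there the calls of Ly86, Lgals3bp, C1qa and Tyrobp were lost.

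Genes of antigen presentation lay mostly on the same side. Differences were below 0 for 19 of 24 genes in the MHC class I list and 10 of 11 in the class II list. H2-D1 and H2-K1 of class I gave 0.01 and -0.17 and H2-Ab1 of class II gave 0.88, none of them called. The MHC class I list also holds genes of peptide transport and processing. Among its 24 genes tested, 4 (16.7%, beside 4.16% of all genes) passed the test as lower and none as higher (median -0.52). These were H2-Bl, H2-Q8, H2-T22 and the peptide transporter Tap2. The call of H2-Q8 was lost in 7 of the 10 fits that left out 1 array. Without BALB arrays 2 and 3 the calls of H2-Q8 and Tap2 were lost. H2-T22 read between 9.94 and 10.03 in BALB and 10.96 to 11.28 in C57BL/6 (difference -1.15 ± 0.14). Of 11 MHC class II genes (18.2% called), H2-Oa and H2-DMb2, which regulate and carry out peptide loading, were lower by 2.83 and 2.80, and the median was -0.45. Class I and II genes have close relatives, so the signals of single genes are uncertain. Of 23 complement genes (13% called), Masp2, a protease of the lectin pathway, was higher by 3.20 ± 0.30, C1qa and C1qb were lower, and the median was 0.08.

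Markers of other cells moved with these groups. Of 14 microglia genes, Fcrls, P2ry13 and Itgam were called lower, with differences of -2.23, -1.57 and -1.41, and the median of the list was -0.84. The mean level of the list, relative to the 10-array mean, lay between -0.92 and -0.08 in BALB and between 0.21 and 0.51 in C57BL/6. The microglial receptor genes Cx3cr1 and P2ry12 gave 0.37 ± 0.30 and -0.26 ± 0.38, neither called. Oligodendrocyte markers had a median of -0.998 over 13 genes, with 1 gene called lower. That list had no call with the slide as a random block or in 8 of the 10 fits that left out 1 array, and 5 calls without BALB array 4. Its level was -1.09, -0.60, -1.22 and 0.42 on the BALB arrays against 0.29 to 0.57 in C57BL/6. Of 12 midbrain and brainstem genes, Th, the rate-limiting enzyme of dopamine and noradrenaline synthesis, was lower by 1.61 ± 0.27, and the median was -1.64. The call of Th was lost without BALB array 2, without BALB array 3 and without both. The level of the brainstem list was -0.98, -2.32, -1.97 and 1.08 on the BALB arrays against 0.15 to 1.43 in C57BL/6. Of 10 endothelial genes, Tie1, a receptor of vessel walls, was lower by 1.46 ± 0.23 (median -0.40), and Aqp4 was the 1 call among 12 genes of Bergmann glia and astrocytes (median -0.09). The called share was 21.4% for microglia and 7.69% for oligodendrocyte markers, beside 4.16% of all genes. It was 10% for endothelial markers and 8.33% for each of the brainstem and astrocyte lists. No gene was called among markers of choroid plexus (11 genes, median 0.86), red blood cells (4, -0.71), T cells (11, -0.55) or B and plasma cells (8, -0.35). The same held for striatum (10, -0.23), forebrain cortex (11, -0.29), hypothalamus (11, -0.10) and thalamus (10, median under 0.01 from 0). In these lists 12 of 76 genes had an unadjusted limma p under 0.05, beside 7248 of all 23644 genes tested. The part of these shifts in the immune differences was not tested, and in whole tissue fewer cells of a type and less RNA per cell cannot be told apart.

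The aged BALB levels were set beside those of C57BL/6 mice of other ages, with the 16 arrays normalized together. Over the 35 immune genes, the aged BALB mean was below both the young and the aged C57BL/6 mean for 12 genes, between them for 17 and above both for 6. The same counts were 22, 13 and 7 for the 42 interferon-induced genes, 13, 6 and 5 for the 24 genes of the MHC class I list, 7, 3 and 1 for 11 MHC class II genes and 12, 0 and 2 for 14 microglia genes. They were not made over all genes tested, so they cannot be read as a trait of these lists. Tyrobp averaged 12.34 ± 0.46 (SD, n = 4) in aged BALB, 12.62 ± 0.41 (n = 4) in young C57BL/6 and 13.53 ± 0.11 (n = 6) in aged C57BL/6. Bst2 averaged 10.67 ± 0.39, 11.09 ± 0.33 and 12.20 ± 0.24 in the same order. For both genes the SD ranges of aged BALB and young C57BL/6 overlapped. They did not overlap for 6 of the 17 immune and interferon-induced genes called lower, namely C1qb, Ly86, Isg15, Gbp2, Igtp and Irgm2, each lower in aged BALB than in young C57BL/6. The 17 genes were chosen on the same aged BALB arrays, so this count is not independent of that choice. C1qb averaged 10.90 ± 0.39 in aged BALB, 12.04 ± 0.30 in young and 12.69 ± 0.11 in aged C57BL/6. Fcrls averaged 7.69 ± 0.56 in aged BALB, 9.79 ± 0.21 in young and 9.88 ± 0.10 in aged C57BL/6. These levels were not tested.

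**Figure D4:**
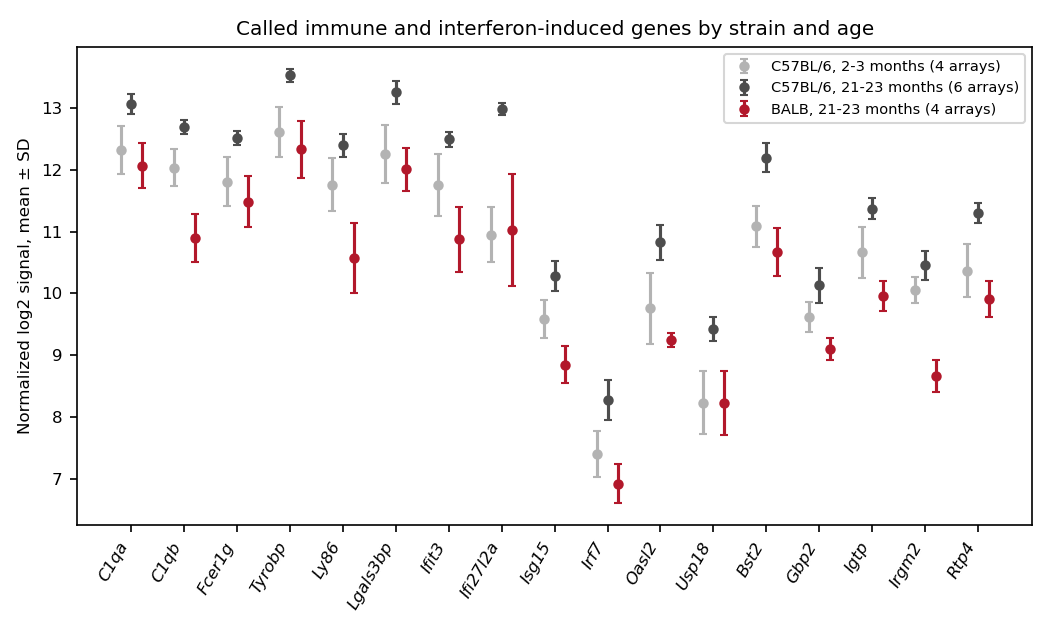
Mean ± SD of the normalized log2 signal of the immune and interferon-induced genes called lower in BALB, in young C57BL/6 (4 arrays), aged C57BL/6 (6 arrays) and aged BALB (4 arrays) cerebellum. The aged C57BL/6 mean is the highest of the 3 for each gene shown. That it lies above the aged BALB mean was fixed by choosing genes called lower in BALB. The study also chose its immune genes on samples that include these C57BL/6 arrays.

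Of 37 excitatory synapse genes 1 (2.7%, beside 4.16% of all genes) was called, Grik1, a kainate receptor subunit, higher by 1.38 ± 0.24. A second Grik1 probe, well above background on every array, gave 0.02 ± 0.18 and was not called, so the probes disagree. Of 28 inhibitory synapse genes 2 (7.14%) were called higher, among them Gabrg3, a GABA-A receptor subunit, by 0.99 ± 0.15. Gabrg3 was dim, well above background on 3 BALB and 5 C57BL/6 arrays, and was not called with 75th percentile scaling, normexp, the median signal or the authors' table, which gave 0.42, 0.22, 0.36 and 0.37. Of 37 ion channel genes (5.41% called) Cacna1g, a T-type calcium channel, and Itpr1, the calcium release channel of Purkinje cells, were higher by 1.51 and 1.23. The second probe of each was not called, at 0.37 for Cacna1g and 0.94 for Itpr1. With the slide as a random block Grik1 and Itpr1 were not called. Neurod1, a granule cell transcription factor, was higher by 1.52 ± 0.25, and none of these lists had a gene called lower. The medians were 0.32 over 14 Purkinje cell and 0.31 over 13 granule cell markers. Granule cell markers averaged 0.74 and 0.51 above the mean on BALB arrays 2 and 3, against -0.19 and -0.36 on BALB arrays 1 and 4. Egr4 and Nr4a1, immediate early genes that respond to cell activity, were the 2 called of 25 such genes (8%, beside 4.16% of all genes). Both were higher, Egr4 by 1.68 ± 0.28, a call lost with the slide as a random block. No clock gene of 19 was called, where 16 of 19 differences were above 0. Among them 2 genes had an unadjusted limma p under 0.05, beside 7248 of all 23644 genes tested.

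Genes known to vary between mouse strains were checked as well. Glo1, which clears methylglyoxal, read 15.87, 15.81, 15.94 and 15.86 in BALB and from 14.21 to 14.53 in C57BL/6, a difference of 1.51 ± 0.14. It was 2.85-fold higher in BALB (limma adjusted p = 0.000109), and both of its probes were called. Mgst3 and Txnrd1, of glutathione and thioredoxin metabolism, were higher by 1.41 and 1.14. These 3 were the only calls among 33 genes of detoxification (9.09%, beside 4.16% of all genes). Nnt, a mitochondrial NADPH-producing enzyme, was higher by 1.38 ± 0.27, with BALB array 1 at 10.79 and the other BALB arrays at 12.12 to 12.19. Its call was lost with the slide as a random block and in 9 of the 10 fits that left out 1 array. Ly6a, a surface antigen, was lower by 1.88 ± 0.29. The GABA-A receptor gene Gabra2 gave 1.19 ± 0.31 through its brightest probe, not called, and 3.01 and 2.05 through its other 2 probes, both called. Tyrp1, a pigment enzyme, gave 0.59 ± 0.66, not called, and H2-Ea and Tyr did not pass the filter on dim probes. Of 4 Y-linked genes tested, Ddx3y, Eif2s3y and Kdm5d were not called and Uty was higher by 0.93 ± 0.17, and all were well above background on all 10 arrays. A second, dimmer Ddx3y probe was called higher, by 3.27 ± 0.41. The call of Uty was lost in 5 of the 10 fits that left out 1 array.

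Called genes were placed through a gene table. Of 16026 placed genes 4.14% were called, from 2.93% on chromosome 10 to 7.32% on chromosome 14. The windows of 1 Mb with the most called genes held 5 each, a ranking by count that favours windows with many tested genes. One, with 15 genes tested, held the ribonuclease genes Ang, Rnase4, Rnase6, Ang2 and Ang4. Another, with 48, held the MHC genes H2-Oa, H2-DMb2 and Tap2 with Brd2 and BC051142. The remaining one, with 47, held Tyrobp among its called genes. A window with Ifi27l2a, of 13 genes tested, also held Serpina1b, Serpina1d and Serpina1e.

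The hypothalamus of aged mice of both strains was used to ask which strain differences were shared by another region. It gave 6 BALB arrays at 20 to 23 months and 5 C57BL/6 arrays at 22 to 24 months. There 4392 of 22782 genes (19.3%) were called. Of the genes called in cerebellum, 915 were tested in hypothalamus through the same probe. Of these, 314 (34.3%) were called on the same side and 56 on the opposite side. Among all 22019 genes tested in both, 11% were called on the same side and 1935 genes on the opposite side. Opposite calls were 49 of the 487 genes higher in BALB cerebellum and 7 of the 428 lower there. Among the 915 genes, 62.1% of those with a cerebellar difference of at least 2 on the log2 scale were called on the same side. Pttg1 differed by -5.14 in hypothalamus.

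The difference of the strain effect between the regions was tested over the 21 arrays, and 2776 of 25085 genes (11.1%) were called. Of 983 genes called in cerebellum, 399 were called for this difference. The 983 genes were chosen on the same cerebellum arrays, so this count is not independent of that choice. Crym, with 5.05 in cerebellum, gave 1.14 in hypothalamus, and the regions differed by 4.18 ± 0.77. H2afy gave -4.16 and -0.16, and Klrc2 gave 4.37 and -1.94. Aqp4, the water channel of astrocyte endfeet, was lower by 1.55 in cerebellum with all 3 probes called, and was called higher in hypothalamus, so that the regions differed by -3.03. P2ry13 and Ly86 gave -0.06 and 0.19 in hypothalamus. The hypothalamus arrays of the strains differed in age range and in the version of the scanner software. They also shared no slide and no scan day, so strain cannot be told apart from these there.

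**Figure D5:**
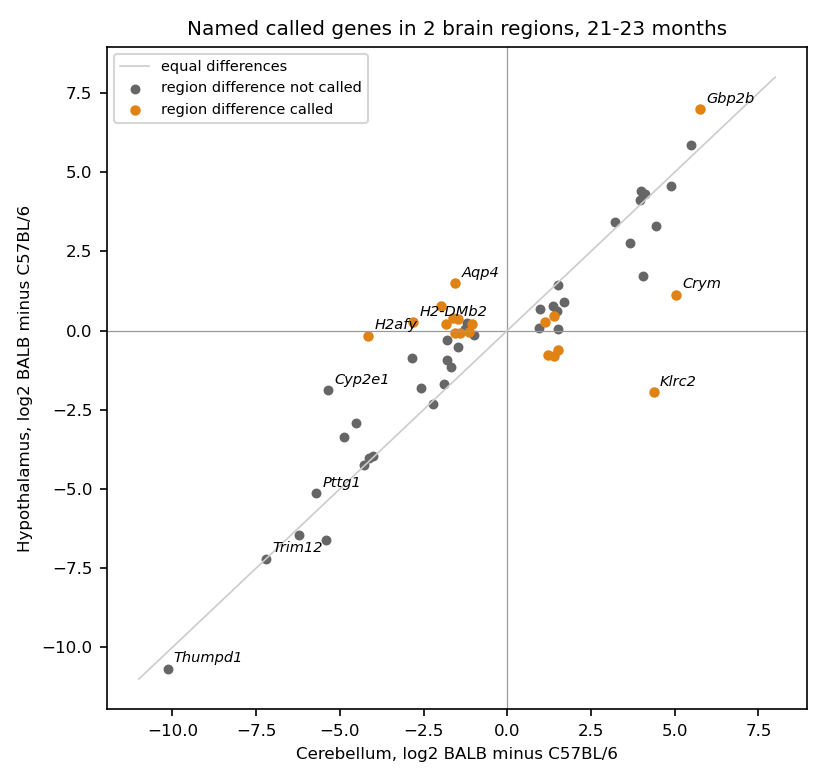
Strain difference (log2, BALB minus C57BL/6) in aged hypothalamus against that in aged cerebellum for the named called genes tested in both. Cerebellum mice were 21 to 23 months old, and hypothalamus mice 20 to 23 (BALB) or 22 to 24 (C57BL/6). Orange points were called for a difference between regions, and the line marks equal differences. Thumpd1, Trim12 and Pttg1 lie near the line, and Crym, Klrc2 and H2afy away from it.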

How the data were processed

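For each array the authors deposited a scanner file from Agilent Feature Extraction, in which the processed intensity of a spot is linear brightness after background subtraction. The authors also deposited a table of log2 values, quantile normalized within a cohort, in which the columns of 3 C57BL/6 arrays correlated best with the scanner values of another array of the group. That table was used only as an alternative, and its other 94 columns were not used. The submitters' processing notes name Agilent Feature Extraction 9.1 and limma, while the headers of these 10 arrays give 10.5.1.1.

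From the scanner files, control spots and outlier spots were left out, log2 processed signals were averaged per probe, and the 10 arrays were quantile normalized. Of 41174 probes, 22951 were named through a RefSeq accession and 18223 kept the name in the files. A probe was tested when well above background on at least 4 arrays. Models were fitted with limma 3.58.1 in R 4.3.3 (lmFit, eBayes, prior proportion 0.01). A gene was called when B of its brightest tested probe was above 0, and p-values were adjusted by Benjamini-Hochberg over all genes tested. The fit was checked on simulated data. The number of arrays limits the precision.

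Named genes were the 12 with the largest difference in each direction among called genes whose strains did not overlap (gene models without a symbol passed over), up to 4 called members of each list, the tested strain-variable genes, the called immune genes of the study and the Y-linked genes. A few genes under this rule are not reported here. The other called interferon-induced genes, Cx3cr1 and P2ry12, and the genes that show neighbouring tissue or share a window were named after their values were seen. The comparison and the 12 gene lists and 16 marker lists were chosen with earlier results of these data known. Lists were described by counts and medians. The planned normexp alternative used the median spot signal, because the mean spot signal is not among the columns used here.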

Additional observations from a re-analysis of the deposited data

Results flagged for a closer look

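In some named genes 1 array lay far from the others of its strain by Dixon's test, which flags about 1 in 20 groups by chance. On the normalized log2 scale these were Bub1b on BALB array 2 (highest, 3.49), Gabra2 on C57BL/6 array 4 (lowest, 8.09), Ifi27l2a on BALB array 1 (highest, 12.42), Irgm2 on BALB array 3 (lowest, 8.26), Nnt on BALB array 1 (lowest, 10.79), Th on C57BL/6 array 4 (highest, 10.96), Thumpd1 on BALB array 2 (highest, 5.05), Thumpd1 on C57BL/6 array 4 (highest, 12.89), Tie1 on BALB array 3 (lowest, 7.19), Txnrd1 on BALB array 1 (highest, 13.64), Tyrp1 on BALB array 1 (lowest, 2.31), Uty on C57BL/6 array 6 (lowest, 5.68) and Zfp459 on BALB array 1 (lowest, 6.41).

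The strain difference of some named genes differed between aged cerebellum and aged hypothalamus (limma interaction over 21 arrays, B above 0). Most named genes were chosen on the same cerebellum arrays, so these calls are not independent of that choice. The value given for each gene is the cerebellar minus the hypothalamic difference on the log2 scale. It was above 0 for Cacna1g (2.13), Crym (4.18), Grik1 (2.22), Itpr1 (2.04), Klrc2 (6.86), Mgst3 (0.97), Slc22a29 (1.65) and Txnrd1 (0.87), and below 0 for Aqp4 (-3.03), Fcer1g (-1.25), Gbp2b (-1.48), H2-DMb2 (-3.31), H2-T22 (-1.16), H2afy (-4.33), Ifi27l2a (-2.76), Itgam (-1.46), Ly86 (-2.07), P2ry13 (-1.61), Th (-2.08) and Tie1 (-1.90).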

How the results depend on the processing

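Against 984 called genes (510 higher and 474 lower in BALB), leaving out each array in turn gave 666 to 1542 (330 to 780 higher, 335 to 762 lower), with 666 without BALB array 2 and 1542 without BALB array 1. In these 10 fits the called lower members were 3 to 7 for MHC class I, 2 to 3 for MHC class II, 3 to 7 for the immune genes of the study, 8 to 14 for interferon-induced genes, 3 to 5 for microglia and 0 to 5 for oligodendrocytes, and 11 of the 58 called named genes lost the call at least once. Scaling to the 75th percentile gave 968 (358 higher, 610 lower) and, for MHC class II, 4 called lower and a median of -0.85. That median was -0.45 as reported, -0.19 with normexp, -0.24 with the replicate block, -0.29 without BALB arrays 2 and 3, and from -0.72 to -0.26 when 1 array was left out. With normexp the interferon median was -0.59. With the slide as a random block (within-slide correlation 0.769) 584 genes were called (289 and 295), with 3 immune and 0 oligodendrocyte genes lower. An adjusted p under 0.05 called 3336 (1735 and 1601), with 4 MHC class II, 18 interferon-induced, 5 microglia and 8 oligodendrocyte genes lower, 1035 genes shared with hypothalamus and 7578 for the difference between regions. Array weights called 3004 (1495 and 1509), with 4 MHC class II, 12 immune, 19 interferon-induced, 8 microglia and 8 oligodendrocyte genes lower. Taking any tested probe gave medians of -0.81, -1.55 and -1.04 for MHC class I, MHC class II and interferon-induced genes, and 2 oligodendrocyte genes lower. In alternatives chosen after seeing the data, leaving out BALB array 1 and C57BL/6 array 1 gave 4 MHC class II and 0 oligodendrocyte genes lower, and leaving out BALB arrays 2 and 3 gave 655 called (305 higher), with 2 MHC class I, 3 immune, 7 interferon-induced and 0 oligodendrocyte genes lower and medians of -0.62 (interferon-induced) and -0.45 (microglia). Kdm5d, not called, changed sign from -0.11 to 0.0879 with array weights and 0.0429 without BALB array 1 and C57BL/6 array 1 and ranged from -0.23 to 0.0470 when 1 array was left out, and Tyrp1, not called, changed sign to -0.11 without BALB arrays 2 and 3. The cause of these changes was not tested.

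The replicate numbers did not pair the arrays: deviations of same-numbered arrays correlated at 0.0852, 0.0877, 0.204 and -0.188. The replicate block, over the 8 arrays numbered 1 to 4, called 342 genes (147 higher, 195 lower), with 1 MHC class I, 1 immune, 2 interferon-induced and 0 oligodendrocyte genes lower, where the same 8 arrays without the block called 568.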
